A study of Mus musculus with 16 samples.

Results

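The 51 genes described here encode the nuclear subunits of complex III, complex IV and ATP synthase, together with assembly factors of complexes III and IV. They were chosen by name from the count table, as the genes beginning with Uqcr, Uqcc, Cox4 to Cox8, Cox10 to Cox19 or Atp5, or named Cyc1, with at least 10 counts over the 16 libraries. Of 56 matching names, the pseudogene Cox7c-ps1 and the supercomplex factor Cox7a2l were left out by name. Another 3 fell below 10 counts: Cox7b2 and Cox8c had no count in any library, and Cox8b had 2 in all. The 51 remaining were part of 20444 genes tested and 40840 listed. They comprised 9 complex III subunits, 3 complex III assembly factors, 10 complex IV subunits, 4 tissue-restricted complex IV isoforms, 8 complex IV assembly factors, 5 subunits of the F1 head of ATP synthase and 12 subunits of its Fo and stalk.

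All libraries came from p53-/-; Myc hepatoblasts, a mouse liver progenitor line that lacks p53 and overexpresses Myc and serves as a model of hepatocellular carcinoma (HCC). Every group, controls included, therefore carried both alterations, and all rest on this single immortalised line. Cells received 8.5 µM sorafenib, a multikinase inhibitor, or its vehicle DMSO for 48 h or 7 d, with 4 libraries in each of the 4 groups. The labels do not say that replicates were separate cultures, so p-values measure the spread between these libraries, which may be technical. The comparisons address what the drug does to mitochondrial gene expression early and late.

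Complex III passes electrons from ubiquinol to cytochrome c, and complex IV passes them on to oxygen, both pumping protons across the inner mitochondrial membrane. ATP synthase lets protons flow back through its Fo ring and uses the rotation to make ATP in its F1 head. The catalytic cores of complexes III and IV are partly encoded by mitochondrial DNA, whose protein genes were not analysed here, whereas the genes below are read from nuclear chromosomes and their products imported.

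Libraries held 16586254 to 30828427 counts in genes, with a median of 26360677. The second sorafenib library at 48 h stood apart from Prkaa1 on chromosome 15 onward, through chromosome 19 and X. Relative to the other libraries of its group, genes there lay at 0.609 of the level of the genes before them. Genes on chromosomes 15 to 19 and X took 14.3% of its counts against 20.8% to 21.6% elsewhere. There were 14 members in that region (Cox6c, Cyc1, Cox14, Atp5g2, Cox17, Atp5j, Atp5o, Uqcc2, Atp5a1, Cox8a, Uqcc3, Cox15, Atp5md and Cox7b). Results on them at 48 h are also given without that library. Summed, the other 37 members stood higher in it. They took 5362 CPM (counts scaled to a common library total), against 4831 to 4868 in the other libraries of its group. Their median log2 fold change at 48 h was -0.25 with this library and -0.27 without it. Other groups were uneven too, by a mean chi-square per gene between libraries. The fourth DMSO library at 7 d stood at 53.1 to 71.5 against the rest of its group, which stood at 1.94 to 3.20 among themselves. The second sorafenib library at 48 h stood at 32.6 to 38.0. Under DMSO at 48 h, libraries 1 and 4 (5.09) and 2 and 3 (5.95) were closest, with 18.7 to 42.7 otherwise. Below, the library that stood apart is the second sorafenib library at 48 h. Among hepatoblast markers, Dlk1 averaged 32234 normalised counts under DMSO at 48 h, whereas Hnf4a had no count in any library and Alb none at 48 h. The summed level of 12 hepatoblast markers moved with treatment, from 35004–36371 to 12891–14810 at 48 h and from 18791–20607 to 6902–7169 at 7 d. Dlk1 made up most of this sum under DMSO at 48 h. By the test used below, 2 of 9 tested markers were higher and 5 lower at 48 h, and 3 higher and 6 lower at 7 d. Of all genes, 26.9% were called higher and 27.7% lower at 48 h, and 28.9% and 27.9% at 7 d. The summed level of 10 markers of other cell types went from 42164–44883 to 79053–85457 at 48 h and from 41507–43921 to 52037–53865 at 7 d, nearly all of it Col1a1, a collagen gene of fibroblasts. Of these 10, Adgre1, Cd3e and Lrat had no count in any library, and the part of either marker list in the results below was not tested.

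Most of these genes were called lower under sorafenib at each time taken separately, and 25 of the 51 at both. At 48 h, 28 members fell, 10 rose and 13 did not pass the test, with edgeR's quasi-likelihood test at a false discovery rate (FDR) under 0.05 over all genes. Across all genes 54.6% were called at 48 h, 26.9% higher and 27.7% lower. At 7 d, 35 members fell, 4 rose and 12 did not pass, where 28.9% of all genes were called higher and 27.9% lower, 56.8% in all. The median log2 fold change of the members was -0.29 at 48 h and -0.27 at 7 d, against -0.05 and 0.02 over all genes tested. Without the library that stood apart, 30 members fell and 13 rose at 48 h. Groups of libraries did not overlap for 26 lower and 8 higher members at 48 h, against 24.9% and 23.1% of all genes, and for 32 lower and 6 higher members at 7 d, against 28.4% and 28.5%. With a size of 0.5 or more on the log2 scale also required, 17 members passed at 48 h and 14 at 7 d, against 32.2% and 34.0% of all genes. In bulk RNA, fewer cells of a kind and less RNA per cell cannot be told apart.

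**Figure D1:**
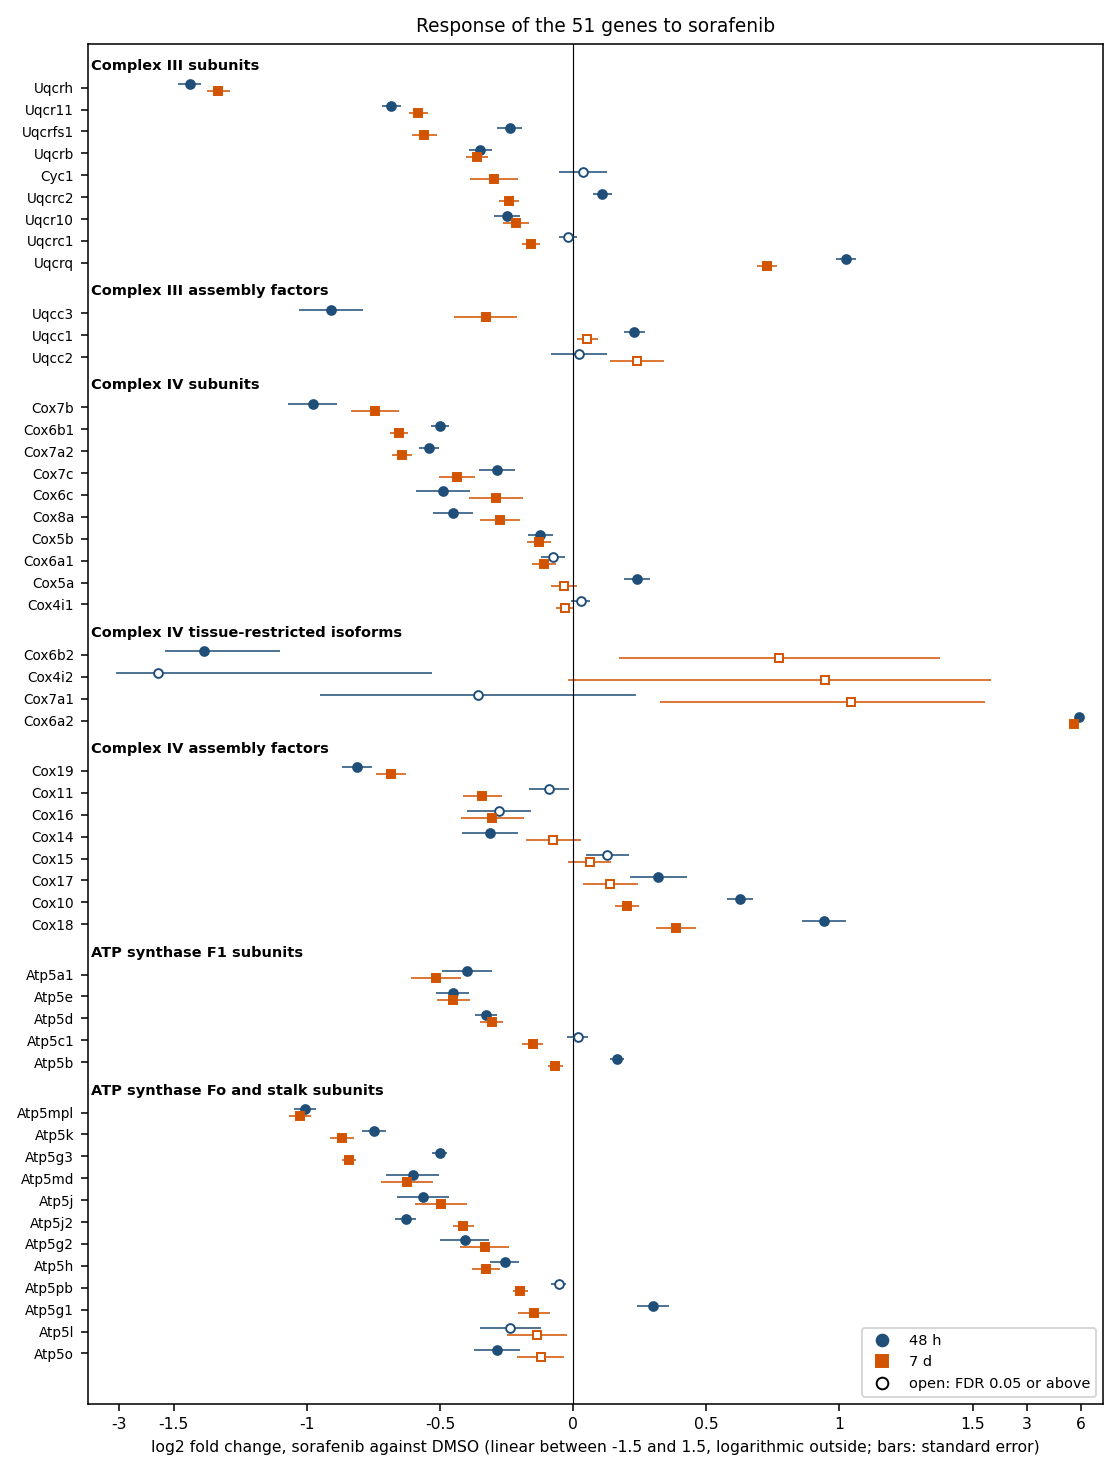
Log2 fold change of each of the 51 genes under sorafenib against DMSO, by class, at 48 h (circles) and 7 d (squares), with standard errors. Filled symbols passed an FDR of 0.05. The scale is linear between -1.5 and 1.5 and logarithmic outside. The 36 structural subunits lie mostly left of zero, with Uqcrq on the right at both times, and Cox6a2 stands far to the right.

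Most of the falls were in structural subunits, counted here without the 4 tissue-restricted complex IV isoforms, which are in neither class. Of 36 subunits, 24 fell and 5 rose at 48 h, and 31 fell and 1 rose at 7 d, with medians of -0.31 and -0.32. Of 11 assembly factors, 3 fell and 4 rose at 48 h, and 4 fell and 2 rose at 7 d, with medians of 0.02 and 0.05. Over all genes, 27.7% were called lower and 26.9% higher at 48 h, and 27.9% and 28.9% at 7 d. When the library that stood apart was left out, 6 assembly factors rose and 3 fell at 48 h, with a median of 0.17, and 4 rose and 4 fell at 7 d. The difference between the classes was not tested. Together the structural subunits took 7448 to 7856 CPM (counts scaled to a common library total) of each DMSO library at 48 h and 6368 to 6510 of each sorafenib library, without overlap. At 7 d they took 7303 to 7568 under DMSO and 6223 to 6296 under sorafenib. Assembly factors took 296 to 316 and 274 to 323 CPM at 48 h, which overlapped, and 309.7 to 324 against 333 to 335 at 7 d.

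Promoters of members that moved at both times are shown for the largest fall in complex III, in complex IV and in the Fo part of ATP synthase, and for the largest rise, among the 39 members with an entry in the RefSeq promoter table. Each is the 250 bases before the start listed by RefSeq (build GRCm38.p6), placed on GRCm39 by exact match and written 5′ to 3′ on the gene's strand, at chr4:115932268-115932517 (minus strand) for Uqcrh, chrX:105059056-105059305 (plus) for Cox7b, chr5:108582266-108582515 (minus) for Atp5k and chr11:63970299-63970548 (minus) for Cox10. By GENCODE vM39 positions, the stretches of Cox7b and Atp5k lie wholly inside the annotated genes (chrX:105055638-105066240 and chr5:108581110-108582949). Those of Uqcrh and Cox10 overlap the genes only at the end near the start. Capitals mark matches to the motifs searched.
Uqcrh: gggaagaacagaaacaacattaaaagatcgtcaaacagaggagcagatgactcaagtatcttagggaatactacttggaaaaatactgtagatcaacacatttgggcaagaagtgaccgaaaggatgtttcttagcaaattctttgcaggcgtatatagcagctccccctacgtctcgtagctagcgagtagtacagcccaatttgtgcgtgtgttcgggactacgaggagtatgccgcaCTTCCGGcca
Cox7b: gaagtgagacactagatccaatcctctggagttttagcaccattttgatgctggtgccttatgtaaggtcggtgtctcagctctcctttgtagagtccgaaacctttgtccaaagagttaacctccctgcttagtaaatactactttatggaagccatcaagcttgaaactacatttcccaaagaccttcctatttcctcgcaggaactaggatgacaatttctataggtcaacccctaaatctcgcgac
Atp5k: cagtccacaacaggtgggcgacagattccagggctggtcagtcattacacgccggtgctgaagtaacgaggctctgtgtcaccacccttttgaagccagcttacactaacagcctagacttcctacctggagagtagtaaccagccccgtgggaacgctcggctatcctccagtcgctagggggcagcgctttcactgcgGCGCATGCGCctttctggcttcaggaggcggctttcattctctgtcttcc
Cox10: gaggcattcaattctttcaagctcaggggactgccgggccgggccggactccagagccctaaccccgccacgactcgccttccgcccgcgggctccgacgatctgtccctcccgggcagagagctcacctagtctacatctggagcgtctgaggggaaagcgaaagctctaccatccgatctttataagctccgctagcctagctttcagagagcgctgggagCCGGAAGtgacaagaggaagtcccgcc

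Motifs were searched on both strands: the NRF1 motif, CCGGAAG (GABPA, an ETS factor), AAGATGGCG (YY1), AAGGTCA (ESRRA), TGATGNAA (ATF4) and CACGTG (MYC). CCGGAAG or its reverse complement stood in 9 of 39 member promoters, or 23.1%, against 1644 of 14942 promoters of tested genes. It lay in Uqcrh, starting 10 bases before the start, and in Cox10, 27 bases before it. The NRF1 motif stood in 5 of 39, or 12.8%, against 6.53%, and in Atp5k began 50 bases before the start. CACGTG stood in 5 of 39 against 7.58% of all, AAGGTCA in 3 of 39 against 3.12%, and AAGATGGCG and TGATGNAA in none, against 0.930% and 2.37%. The Cox7b stretch, which lies inside the annotated gene, held none of them. A match describes these letters only, and genes that rose and genes that fell both held CCGGAAG. Cox4i2, Cox18, Uqcrc2, Cox6a2, Cox4i1, Uqcrq, Atp5mpl, Uqcrb, Cox6c, Cyc1, Cox17 and Atp5a1 had no entry.

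In complex III, 8 of 9 subunits fell at 7 d, against 27.9% of all genes. The hinge protein gene Uqcrh and the small subunit gene Uqcrq moved in opposite directions at both times. Uqcrh (chr4:115923314-115932296, GRCm39), whose acidic product helps cytochrome c1 meet cytochrome c, had 3956, 3692, 3554 and 3502 normalised counts in the DMSO libraries at 48 h and 1242, 1399, 1384 and 1390.1 in the sorafenib libraries. By 7 d it had 3283, 3190.0, 3168 and 3099.7 under DMSO and 1261, 1285, 1239 and 1273 under sorafenib. Every treated library lay far below every control. It fell by 1.44 ± 0.04 on the log2 scale at 48 h (standard error, FDR 2.82e-16) and by 1.33 ± 0.04 at 7 d (FDR 7.35e-16), leaving 0.369 and 0.397 of the control level.

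Uqcrq (chr11:53318749-53322047), chosen for full display after its values were seen, encodes a small subunit that contacts cytochrome b. Its counts were 2040.0, 2074, 1991 and 2108 under DMSO and 4316, 4366, 4005 and 4035 under sorafenib at 48 h. At 7 d they were 2578, 2537, 2647 and 2408 against 4328, 4156, 4156 and 4202, again without overlap. Among the 36 structural subunits, counted without the tissue-restricted isoforms, only Uqcrq was called higher at 7 d. Uqcrq rose by 0.73 ± 0.04 at that time (FDR 1.01e-12), after a rise of 1.02 ± 0.04 at 48 h (FDR 5.63e-15). It overlaps Gdf9 on the opposite strand, which averaged 6.11 to 13.9 normalised counts over the 4 groups.

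Other complex III subunits fell by less. The small subunits Uqcr11, Uqcrb and Uqcr10 fell by 0.68, 0.35 and 0.25 at 48 h and by 0.58, 0.36 and 0.21 at 7 d. Uqcrfs1, the Rieske iron-sulfur protein, fell by 0.24 at 48 h and by 0.56 at 7 d. The cytochrome and one core protein passed at 7 d and not at 48 h. Cyc1 (cytochrome c1) stood at 0.04 at 48 h, which did not pass, and fell by 0.30 at 7 d, and the core protein gene Uqcrc1 stood at -0.02 and then fell by 0.16. Without the library that stood apart, Cyc1 was called higher at 48 h, at 0.17.

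Uqcrc2 encodes the other core protein, and its direction turned between the times. It had 4196, 4089.6, 3821 and 3881 normalised counts under DMSO and 4048, 4503, 4398 and 4296 under sorafenib at 48 h, with overlapping groups. In the 7 d libraries it had 4286, 4319, 4369 and 4258 under DMSO and 3612, 3612, 3661 and 3701 under sorafenib, without overlap. Its log2 fold change was 0.11 ± 0.04 at 48 h (FDR 0.0143) and -0.24 ± 0.04 at 7 d (FDR 8.04e-06). The 48 h call was lost in 7 of 23 alternatives, where the value was 0.04 to 0.08.

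Among the complex III assembly factors, Uqcc3, which stabilises newly made cytochrome b, fell, while Uqcc1, its partner at an earlier step, rose at 48 h by 0.23. Uqcc3 (chr19:8856701-8858292) had 424, 416, 382 and 367 normalised counts under DMSO and 229, 130.0, 247 and 226 under sorafenib at 48 h, the value of 130.0 belonging to the library that stood apart. The 7 d values were 283, 274, 286 and 253 against 224, 239.6, 216 and 192. It fell by 0.91 ± 0.12 at 48 h (FDR 1.61e-06), or by 0.76 without that library, and by 0.33 ± 0.12 at 7 d (FDR 0.0236), a call lost when any of 3 libraries was left out. Uqcc2, which works with Uqcc1, did not pass at either time, at 0.02 and 0.24. Without the odd library it was called higher at both, at 0.17 and 0.24.

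**Figure D2:**
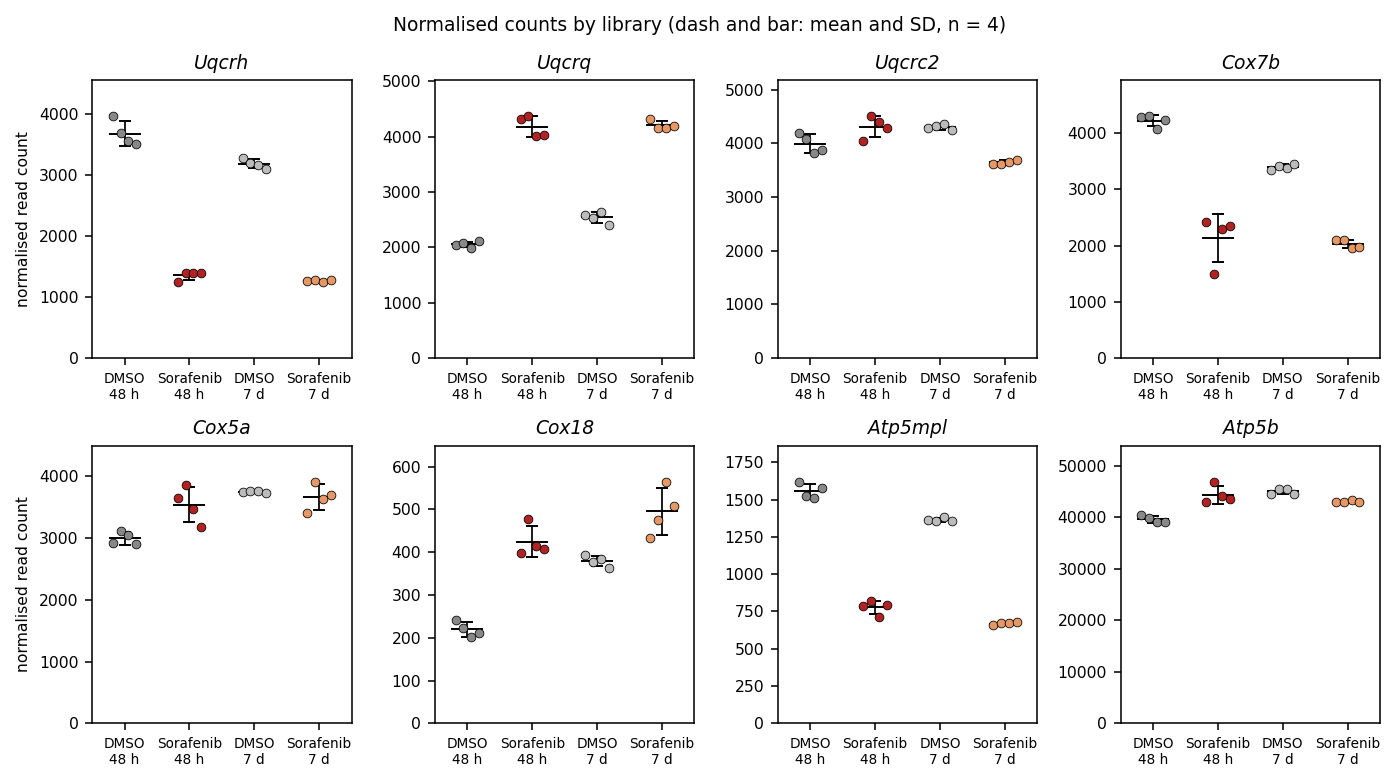
Normalised counts of 8 genes in each of the 16 libraries, with the mean and SD of each group (n = 4) as dash and bar. The vertical axes start at 0. Uqcrh, Cox7b and Atp5mpl lie lower in every sorafenib library, Uqcrq and Cox18 higher, and the low point of Cox7b at 48 h is the library that stood apart.

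In complex IV, 7 of 10 subunits fell at 48 h and 8 at 7 d, against 27.7% and 27.9% of all genes, and Cox5a rose at 48 h. Cox7b, a small membrane subunit (chrX:105055638-105066240), had 4290.1, 4299, 4084 and 4227 normalised counts under DMSO at 48 h and 2420.4, 1502, 2289 and 2343 under sorafenib. At 7 d it had 3347, 3412, 3386 and 3453 under DMSO and 2091, 2094, 1964 and 1980.2 under sorafenib. Treated libraries lay below all controls. The fall was 0.98 ± 0.09 at 48 h (FDR 1.13e-08), or 0.85 without the library that stood apart, and 0.74 ± 0.09 at 7 d (FDR 5.3e-07).

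Cox5a encodes a subunit on the matrix side. It had 2915, 3115, 3054 and 2911 normalised counts under DMSO and 3649.5, 3868, 3468 and 3186 under sorafenib at 48 h, all treated libraries above all controls. At 7 d the groups overlapped, with 3754, 3767, 3769 and 3729 under DMSO and 3412, 3911, 3642 and 3699 under sorafenib. Its change was 0.24 ± 0.05 at 48 h (FDR 0.000354) and -0.03 ± 0.05 at 7 d (FDR 0.586). The 48 h rise was 0.19 without the library that stood apart.

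Cox6b1 fell by 0.50 and 0.65 and Cox7a2 by 0.54 and 0.64 at the 2 times. The small membrane subunits Cox7c, Cox6c and Cox8a fell by 0.29, 0.49 and 0.45 at 48 h and by 0.44, 0.29 and 0.27 at 7 d, and without the odd library Cox6c and Cox8a fell by 0.35 each at 48 h. Cox5b fell by 0.12 and 0.13. Cox4i1, the largest nuclear-encoded subunit, did not pass at either time: it had 8167, 7709, 7656 and 7399 normalised counts under DMSO and 7632, 8088, 8050.0 and 7768 under sorafenib at 48 h, and 6675, 6708, 7008 and 7053 against 6485, 6805, 6739 and 6871 at 7 d. Its log2 fold changes were 0.03 ± 0.03 and -0.03 ± 0.03.

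Some complex IV subunits come as paired isoforms, with a general or liver form and a form mostly found in muscle, lung or testis. Levels within a pair were compared per kilobase of transcript. The general forms Cox4i1, Cox6a1, Cox6b1 and Cox7a2 made up over 93% of their pair in every library (the lowest was 93.955%, Cox6a1 under sorafenib at 7 d), so the order within each pair was the same in all 4 groups, also without division by length.

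The muscle form Cox6a2 (chr7:127804607-127805559) rose most of all members. It had 4.89, 6.07, 6.13 and 1.73 normalised counts under DMSO at 48 h and 283, 290.3, 274 and 291 under sorafenib. By 7 d it had 5.41, 9.42, 1.73 and 6.49 under DMSO and 280.1, 280.2, 248 and 287 under sorafenib. The controls held 2 to 11 raw reads each and the treated libraries 192 to 345. The rise was 5.90 ± 0.19 on the log2 scale at 48 h (59.7-fold, FDR 5.55e-16) and 5.54 ± 0.18 at 7 d (46.4-fold, FDR 5.93e-16). Its share of the Cox6a pair went from 0.0924% ± 0.0419 to 5.53% ± 0.353 at 48 h and from 0.115% ± 0.0636 to 5.56% ± 0.427 at 7 d (SD, n = 4). The liver form Cox6a1 meanwhile had 4333, 4254, 4179 and 4465 normalised counts under DMSO and 4306, 4417, 3778 and 3879.6 under sorafenib at 48 h, a change of -0.07 that did not pass, though it did without the library that stood apart, at -0.11. In the 7 d libraries it had 4097, 4200.0, 4318 and 4282 against 4129, 3868, 3915 and 3749, a fall of 0.11 (FDR 0.0446) whose call was lost in 13 of 23 alternatives. Cox6a2 lies wholly inside Itgad, which is read from the opposite strand and held 0 to 7 raw reads in each library. Itgad was itself called higher at both times, at 3.38 (FDR 0.0170) and 4.69 (FDR 0.00647), on these few reads, and the part of either gene's reads in the other's count was not tested.

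Cox6b2, the testis form, went the other way at 48 h. It had 45.0, 44.2, 32.7 and 48.4 normalised counts under DMSO and 7.02, 19.7, 17.1 and 20.4 under sorafenib, and fell by 1.39 ± 0.29 (FDR 0.000349). At 7 d, it held 0 to 7 raw reads in each DMSO library and 3 to 7 in each sorafenib library, and the difference did not pass (FDR 0.292). Its level under DMSO thus fell between the times, by 4.01 ± 0.39 (FDR 3.49e-08). The pair's general form Cox6b1 had 3652, 3739, 3486 and 3801 normalised counts under DMSO and 2613, 2664, 2507 and 2608 under sorafenib at 48 h, and 3302, 3338, 3401 and 3443 against 2153, 2176, 2151 and 2090.4 at 7 d, without overlap at either time.

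Cox4i2, the lung form, held at most 5 raw reads in any library and Cox7a1, the muscle form, at most 10, and neither passed under sorafenib at either time. Under DMSO, Cox7a1 was called lower at 7 d than at 48 h, at -1.64 ± 0.66 (FDR 0.0476), on 3 to 10 reads against 2 in each library. Cox7a2, the partner of Cox7a1, had 2712, 2544, 2575 and 2620.0 normalised counts under DMSO and 1786, 1919, 1727 and 1754 under sorafenib at 48 h, and 2446, 2310.3, 2379 and 2481 against 1503, 1567, 1531 and 1564 at 7 d. Treated and control libraries did not overlap.

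**Figure D3:**
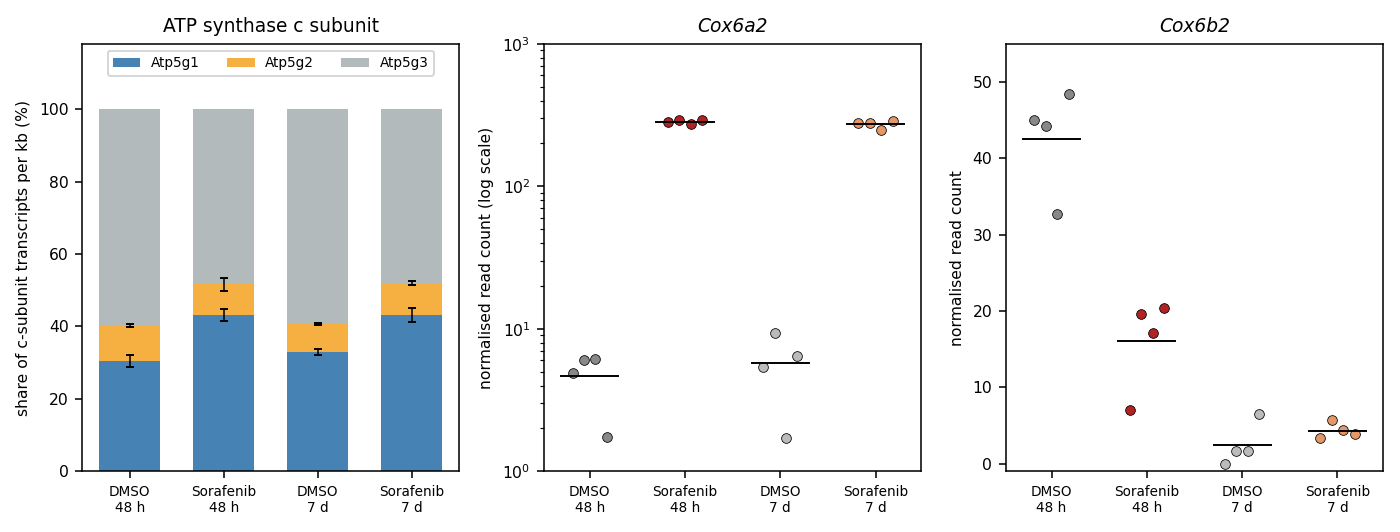
Left, share of each c-subunit gene in their summed level per kilobase of transcript, as group means with the SD (n = 4) of each lower share drawn at its upper boundary. Middle and right, normalised counts of Cox6a2 (log scale) and Cox6b2 (linear scale) in each library, with the group mean as a line. Atp5g1 takes a larger share under sorafenib at both times, Cox6a2 lies above 240 in every treated library, and Cox6b2 is highest under DMSO at 48 h.

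Of 8 complex IV assembly factors, 3 rose and 2 fell at 48 h, and 2 rose and 3 fell at 7 d. Over all genes, 26.9% were called higher and 27.7% lower at 48 h, and 28.9% and 27.9% at 7 d. Cox18, which inserts the tail of the core subunit COX2 into the membrane (chr5:90362567-90371931), had 242, 224, 202 and 212 normalised counts under DMSO and 398, 478, 415 and 407 under sorafenib at 48 h. At 7 d it had 392, 378, 384 and 364 against 434, 475, 564 and 508. All treated libraries lay above their controls. The rise was 0.94 ± 0.08 at 48 h (FDR 5.4e-09) and 0.39 ± 0.07 at 7 d (FDR 0.000163). It was 0.89 at 48 h without the library that stood apart.

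Cox19, a small protein of copper delivery to complex IV, fell: it had 600.2, 557, 584 and 579.8 normalised counts under DMSO and 313, 349, 358 and 299.8 under sorafenib at 48 h, and 532, 551, 540.4 and 511 against 344, 323, 321 and 342 at 7 d. The falls were 0.81 ± 0.06 (FDR 1.92e-10) and 0.68 ± 0.06 (FDR 1.69e-09). Of the other copper factors, the chaperone Cox17 rose at 48 h by 0.32 (0.46 without the odd library) and did not pass at 7 d, at 0.14, though without that library it did. Cox11 stood at -0.09 and then fell by 0.34. In heme synthesis, Cox10, which makes heme O, rose. Cox10, also shown in full after its values were seen, had 785, 747, 807 and 759.6 normalised counts under DMSO and 1141, 1329, 1151 and 1169.8 under sorafenib at 48 h, and 1219, 1291, 1246 and 1190.0 against 1423, 1444, 1439.6 and 1381 at 7 d. Treated libraries lay above all controls, with rises of 0.63 ± 0.05 and 0.20 ± 0.05. The 48 h value of 1329 came from the library that stood apart. Cox15, which turns heme O into heme A, did not pass, at 0.13 and 0.06. Without the odd library Cox15 was called higher at 48 h, at 0.24. Cox14 and Cox16, which act around the core subunits COX1 and COX2, stood at -0.31 and -0.28 at 48 h and at -0.07 and -0.30 at 7 d, of which the first and the last passed. Without the odd library Cox14 stood at -0.17 at 48 h and was still called.

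Outside the name rule, 27 of 29 other assembly and expression factors of these complexes were tested. Over all genes, 26.9% were called higher and 27.7% lower at 48 h, and 28.9% and 27.9% at 7 d. Of these 27 factors, 9 rose and 9 fell at 48 h, and 6 rose and 5 fell at 7 d. The largest changes among those called at 48 h were in Higd1a, a hypoxia-linked complex IV factor, which fell by 1.26 at 48 h and stood at 0.11 at 7 d, not passing; in Coa8, which rose by 0.85 and 1.07; and in Pet100, which fell by 0.81 and 0.70. At 7 d Surf1 followed Coa8 and Pet100, with 0.42 at both times. Cycs, cytochrome c itself, rose by 0.71 at 48 h and fell by 0.16 at 7 d. Ndufa4, a subunit now counted with complex IV, fell by 0.48 and 0.60.

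In the F1 head of ATP synthase all 5 subunits fell at 7 d, by between 0.07 and 0.51, against 27.9% of all genes called lower. Atp5a1, the alpha subunit, had 28693, 28277, 28046 and 26792 normalised counts under DMSO and 23089.8, 14725, 23836 and 23175 under sorafenib at 48 h, the value of 14725 coming from the library that stood apart. By 7 d it had 28370.2, 28526, 28601 and 28156 against 19150.3, 20203, 20211 and 19974. It fell by 0.40 ± 0.09 at 48 h (FDR 0.00125), or 0.26 without that library, and by 0.51 ± 0.09 at 7 d (FDR 9.36e-05).

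Its partner in the catalytic ring, the beta subunit Atp5b, moved in opposite directions at the 2 times. It had 40397, 39907, 38994 and 39025 normalised counts under DMSO and 42954, 46875, 44224 and 43565 under sorafenib at 48 h, all treated libraries higher. In the 7 d libraries it had 44435, 45575, 45536 and 44618 against 42889, 43015, 43274 and 42929, all treated libraries lower. The changes were 0.17 ± 0.03 (FDR 2.26e-05) and -0.07 ± 0.03 (FDR 0.0422). The small change at 7 d lost its call in 10 of 23 alternatives. The 48 h rise was 0.14 without the library that stood apart.

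Atp5e, the epsilon subunit of the central stalk, had 1705, 1659, 1601 and 1481 normalised counts under DMSO and 1097, 1335, 1142 and 1146 under sorafenib at 48 h, and 1371, 1251, 1397 and 1426 against 971, 935, 997 and 1083 at 7 d. It fell by 0.45 ± 0.06 at each time. The delta subunit Atp5d fell by 0.33 and 0.31. The rotor subunit gamma, Atp5c1, stood at 0.02 at 48 h, not passing, and fell by 0.15 at 7 d.

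In the Fo part and stalk, 9 of 12 subunits fell at 48 h and 10 at 7 d, against 27.7% and 27.9% of all genes. The small proteolipid gene Atp5mpl (Atp5mj in current naming, chr12:111925397-111933510) had 1619, 1524, 1510.0 and 1576 normalised counts under DMSO and 784, 819.6, 712 and 792 under sorafenib at 48 h. The 7 d values were 1361, 1355, 1380.3 and 1359.7 against 657, 673, 670.0 and 677. Treated libraries lay below all controls at both times, with falls of 1.01 ± 0.04 (FDR 3.76e-14) and 1.03 ± 0.04 (FDR 2.43e-14). Between the times its level fell under sorafenib by 0.21 ± 0.04 (FDR 0.0006), and the treated libraries of the 2 times did not overlap. It fell by 0.19 under DMSO as well, also without overlap. The difference between the 2 responses was -0.02 and did not pass.

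Subunits at the base of the membrane part, where ATP synthase forms dimers, also fell. Atp5k (subunit e) fell by 0.75 and 0.87 and Atp5md by 0.60 and 0.62, while Atp5l (subunit g) did not pass, at -0.24 and -0.14. Atp5j2 (subunit f) fell by 0.63 and 0.41. In the peripheral stalk, Atp5j (subunit F6) fell by 0.56 and 0.50 and Atp5h (subunit d) by 0.26 and 0.33. Atp5pb (subunit b) stood at -0.05 and then fell by 0.20. Atp5o, the oligomycin sensitivity protein, fell by 0.29 at 48 h and stood at -0.12 at 7 d, not passing. Without the odd library, Atp5md, Atp5j and Atp5o fell by 0.47, 0.42 and 0.15 at 48 h, and Atp5o was called lower at 7 d too, at -0.12. Atp5pb was then called lower at 48 h, at -0.07.

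The c subunit of the rotating ring is encoded by 3 genes whose mature products are identical, and these did not move together. Atp5g3 (chr2:73738779-73741933) had 7472, 7385, 7211 and 7118 normalised counts under DMSO and 5043, 5231, 5210.0 and 5132 under sorafenib at 48 h, and 8095, 8177, 8346 and 8082 against 4637, 4525, 4632 and 4464 at 7 d. It fell by 0.50 ± 0.03 (FDR 3.35e-12) and by 0.84 ± 0.03 (FDR 8.11e-16).

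Atp5g1 (chr11:95959678-95966757) had 2356, 2200.1, 2165 and 2528 normalised counts under DMSO and 2704, 3056, 2763 and 2874 under sorafenib at 48 h, without overlap. At 7 d it had 2958, 2743, 2888 and 2703 against 2887, 2362, 2461 and 2499, with overlap. Its changes were 0.30 ± 0.06 (FDR 0.000251) and -0.15 ± 0.06 (FDR 0.0426), the second lost in 8 of 23 alternatives. The 48 h rise was 0.27 without the library that stood apart.

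Atp5g2 had 877, 874, 929 and 892 normalised counts under DMSO and 696, 472, 772 and 729 under sorafenib at 48 h, and 802, 736, 794 and 783 against 625, 571, 644 and 637 at 7 d. It fell by 0.41 ± 0.09 (0.28 without the library that stood apart, which gave the value of 472) and by 0.33 ± 0.09. Per kilobase, Atp5g3 stood highest in every group and Atp5g2 lowest. The share of Atp5g1 was 30.5% ± 1.72 under DMSO and 43.2% ± 1.79 under sorafenib at 48 h, and 33.1% ± 0.849 and 43.2% ± 1.92 at 7 d (SD, n = 4), treated libraries from 41.6% to 46.0% and controls from 29.2% to 34.2%. The share of Atp5g3 went from 59.6% to 48.4% and from 59.3% to 48.0%.

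The inhibitor of ATP hydrolysis by this enzyme, Atpif1, which is no member, averaged 4467 and 2802 normalised counts under DMSO and sorafenib at 48 h and 3310 and 2035 at 7 d, falls of 0.67 and 0.70.

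Over both times, 25 members fell at each, 4 rose at each (Cox10, Cox18, Cox6a2 and Uqcrq) and 3 rose first and fell later (Uqcrc2, Atp5b and Atp5g1). Another 3 fell at 48 h only, 3 rose at 48 h only, 7 fell at 7 d only and 6 passed at neither. Without the library that stood apart, the first 3 of these counts were 28, 6 and 4, the additional gene among those that turned being Cyc1. Calls at a single time do not show that the times differ, so the difference of the responses was tested. It passed for 18 members, 15 of them with a more negative response at 7 d, where 36.8% of all genes passed, 21.3% in that direction and 15.5% in the other. Without the library that stood apart it passed for 24, 19 of them more negative. With scaling to total counts only, 15 passed, 8 more negative and 7 more positive. An absolute difference of at least 0.5 as well was met by 3 members, against 19.2% of all genes.

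Among members that passed, the largest differences were in Cox6b2 (2.16 ± 0.68, FDR 0.0162), Uqcc3 (0.58 ± 0.17, FDR 0.00991), Cox18 (-0.56 ± 0.11, FDR 0.000499) and Atp5g1 (-0.45 ± 0.08, FDR 0.000273). All 5 complex III subunits that passed, namely Uqcrc2, Cyc1, Uqcrfs1, Uqcrq and Uqcrc1, were more negative at 7 d, by 0.35, 0.33, 0.32, 0.30 and 0.14. Without the library that stood apart, 5 complex III subunits passed as more negative, Cyc1 by 0.46, and 1 as more positive, at 0.12. With all libraries, Uqcrh, Cox6a2, Atp5mpl, Atp5e and Cox7b, which moved at both times, did not pass, at 0.11, -0.36, -0.02, 0.00 and 0.24. Cox7b did pass without the library that stood apart, at 0.10 (FDR 0.0364), and with scaling to total counts only, at 0.33 (FDR 0.0291). Uqcrh passed with that scaling, at 0.20, and with at least 10 counts required in every library, at 0.17 (FDR 0.0149). A p that misses the threshold does not show that their responses were equal.

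**Figure D4:**
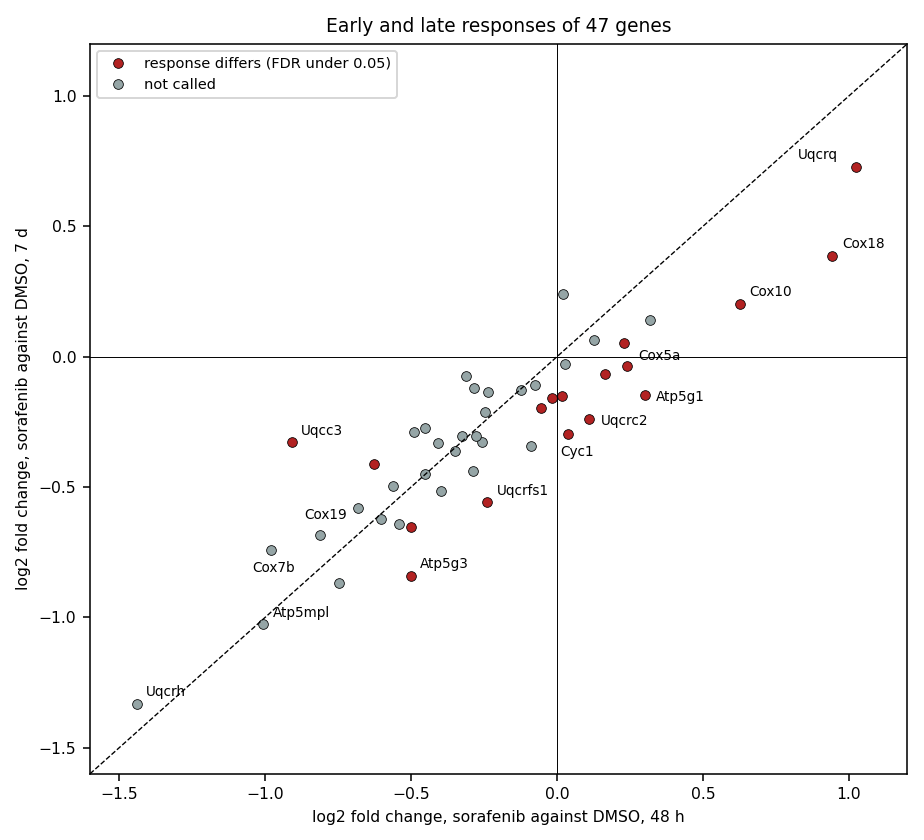
Log2 fold change under sorafenib at 48 h (horizontal) against 7 d (vertical) for 47 members, the 4 tissue-restricted isoforms left out. The dashed line marks equal responses, and red points passed the test of the difference. Most red points lie below the line, and those of Uqcc3 and Atp5j2 lie above it.

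Levels at the 2 times were also compared within each treatment, between separate sets of libraries. Under DMSO, 13 members were higher and 13 lower at 7 d than at 48 h, close to the share of all genes, of which 23.9% were called higher and 25.5% lower, 49.4% in all. Without the second sorafenib library at 48 h, which enters this fit through the shared estimate of spread, 15 were higher and 20 lower. Cox18 and Cox10 rose by 0.79 and 0.68, and Cyc1, Cox5a, Uqcrq and Atp5g1 by 0.34, 0.32, 0.31 and 0.29. Uqcc3, Uqcr11 and Cox7b fell by 0.54, 0.34 and 0.31. Under sorafenib, 2 members (Cox18 and Cox10) were higher and 14 lower at 7 d, where 17.5% and 22.3% of all genes were called, 39.7% in all. Without the library that stood apart, these were 3 and 23. With scaling to total counts only, the splits were 9 higher and 19 lower under DMSO and 4 and 9 under sorafenib. Cyc1, Uqcrq and Cox5a, which had risen with time in the controls, stood at 0.01, 0.01 and 0.05 with time under sorafenib and did not pass. With the odd library left out, Cyc1 was called lower, at -0.12, and Cox5a higher, at 0.10, while Uqcrq stood at 0.03 and did not pass. An absolute change of at least 0.5 as well was met by 5 members under DMSO and 1 under sorafenib, against 23.6% and 16.5% of all genes. These time comparisons share libraries with the treatment comparisons.

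Members also differed by the size of their coding sequence, which the rule did not use. The 12 structural subunits with under 300 coding bases had a median log2 fold change of -0.55 at 48 h and -0.60 at 7 d. The 15 with 300 to under 600 bases had -0.33 and -0.31, and the 9 with 600 or more -0.02 and -0.20. Over all genes with a mean of at least 100 normalised counts the medians of these bins were -0.18, -0.07 and 0.04 at 48 h and -0.16, -0.11 and -0.03 at 7 d, so the order was the same with smaller steps. Across the 36 subunits, which share libraries, the log2 fold change was set against the log2 of the coding length. Pearson r was 0.418 and Spearman rho 0.587 at 48 h, and 0.302 and 0.438 at 7 d. Over all genes with a mean of at least 100 normalised counts these were 0.067 and 0.065 at 48 h, and 0.027 and 0.033 at 7 d. The short Uqcrq rose against this order. Near-identical copies add uncertainty for the shorter genes: 21 of 51 members had at least 1 further genomic match of at least 90% identity over at least 80% of the coding sequence, up to 8 for Atp5h, with 4 for Cox7b, 2 for Uqcrh and 1 for Uqcrq, and how reads from such copies were counted is not given in the sources used here. A coding gene on the opposite strand overlapped 17 members and one on the same strand Cox16 and Cox17. Whether counting used strand is likewise not given.

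**Figure D5:**
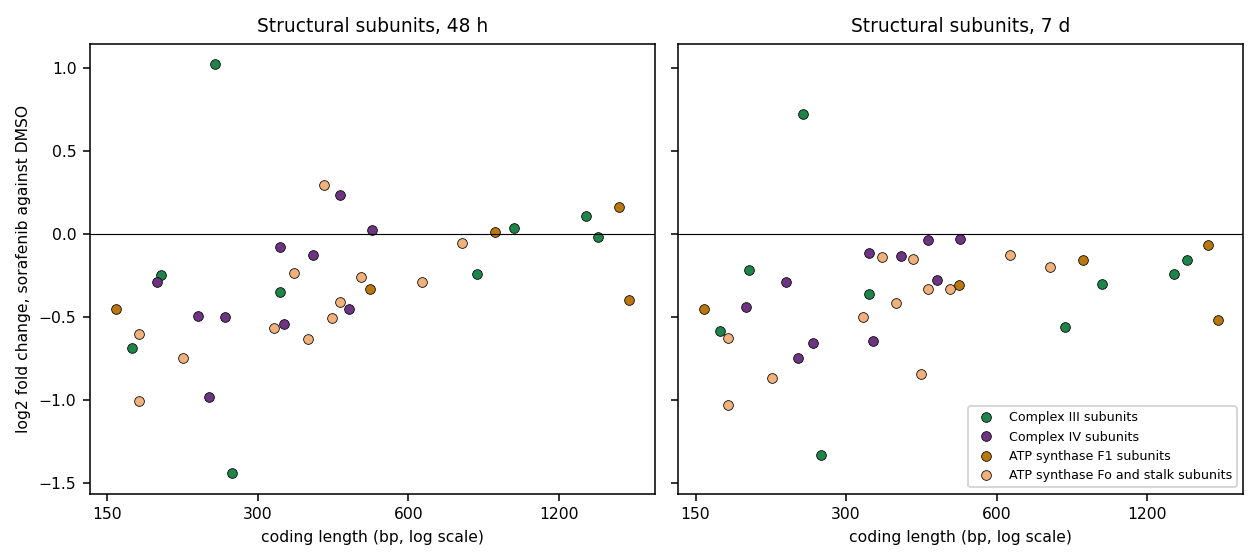
Log2 fold change under sorafenib against coding length (log scale) for 36 structural subunits at 48 h (left) and 7 d (right), coloured by complex. Points for short genes tend to lie lower than those for long genes at both times, with overlap, and Uqcrq lies above zero among the shortest.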

How the data were processed

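Per the labels, RNA of 16 samples was made into stranded mRNA libraries. The deposited table holds raw read counts per gene. The submitters' processing notes name STAR 2.7.1a, featureCounts 2.0.6 and DESeq2 1.40.2 and build GRCm39. The annotation and the strand setting are not given in the sources used here. Genes with at least 10 counts in total (20444) were scaled by TMM and tested with edgeR 4.0.16 (R 4.3.3) by the quasi-likelihood test in 1 model with 4 groups, with Benjamini-Hochberg adjustment over all genes. Normalised counts are counts divided by TMM-scaled library size, set to the geometric mean library. On simulated counts for the 48 h comparison (20118 genes), 99 of 100 genes changed by 0.5 and 100 of 100 changed by 1 on the log2 scale were called. Another 7 genes were called falsely. The changed genes had a mean of at least 100 counts, and every gene had the same spread. Far fewer genes changed than in the data, and no library stood apart, so genes with few reads were not covered. Positions and lengths came from GENCODE vM39, copies from minimap2 2.31.

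Every member may be named. Values of each library are given for paired isoforms and for called members chosen in each class. Those had the largest change at 48 h, the largest at 7 d or the largest difference between times. Uqcrq and Cox10 were added. Cox10 was in neither the check for outlying libraries nor the single-gene alternatives. Members and lists were chosen with earlier results of these data known. Alternatives were DESeq2 1.42.0, other scalings and filters, fewer libraries, a replicate block and a fold threshold. Counting error limits genes with few reads.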

Additional observations from a re-analysis of the deposited data

Results flagged for a closer look

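In 92 groups of 4 libraries (23 genes in 4 groups), 5 held a library further from the others than Dixon's critical value allows, where chance gives about 1 group in 20. In the second sorafenib library at 48 h, Atp5a1 was at 14725 normalised counts, the others lying between 23090 and 23836, and Cox7b at 1502, the others between 2289 and 2420.4. Both genes lie in the region lowered in that library. Uqcrh was at 1242 in the first sorafenib library at 48 h, against 1384 to 1399, still below every control. Cox4i2 at 1.14 in the fourth sorafenib library at 48 h and Cox7a1 at 1.12 in the first sorafenib library at 7 d rest on 1 read each. Cox10, though its values are shown in full, was not among the 23 genes. In the second sorafenib library at 48 h it was at 1329, the others lying between 1141 and 1169.8. This value was not tested.

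The response to sorafenib differed between 48 h and 7 d for 18 members by the test of the difference itself, which 36.8% of all genes also passed. It was more negative at 7 d for Cox18 (-0.56), Atp5g1 (-0.45), Cox10 (-0.43), Uqcrc2 (-0.35), Atp5g3 (-0.34), Cyc1 (-0.33), Uqcrfs1 (-0.32), Uqcrq (-0.30), Cox5a (-0.27), Atp5b (-0.23), Uqcc1 (-0.18), Atp5c1 (-0.17), Cox6b1 (-0.15), Atp5pb (-0.14) and Uqcrc1 (-0.14). It was more positive for Cox6b2 (2.16), Uqcc3 (0.58) and Atp5j2 (0.22). The value of Cox6b2 rests on 0 to 7 reads per library at 7 d and lost its call without the second sorafenib library of that time (1.99, FDR 0.0535). The call of Cox6b1 was lost in 6 of 22 alternatives, and that of Cox5a with scaling to total counts only.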

How the results depend on the processing

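The numbers of members called stayed within 1.5 times their value under DESeq2, DESeq2 size factors, total counts, both other filters, fits of only the libraries compared and the replicate block. Same-numbered replicates did not deviate together in every pair (correlations -0.0486 to 0.127 between treatments and -0.178 to 0.0620 between times), so the numbers were not taken as pairs. The block gave 39 and 38 members at 48 h and 7 d, 18 for the difference between times and 26 and 16 for time under DMSO and sorafenib, and it ended the 7 d calls of Atp5b and Cox6a1 among the 69 gene values tried. Requiring an absolute log2 fold change of 0.5 as well left 17 members at 48 h, 14 at 7 d, 3 for the difference between times, 5 for time under DMSO and 1 for time under sorafenib, since most changes are smaller. Leaving out a library gave 37 to 43 members at 48 h, 34 to 42 at 7 d, 14 to 24 for the difference, 23 to 35 for time under DMSO and 12 to 26 for time under sorafenib, and each highest value came without the second sorafenib library at 48 h. Without the fourth DMSO library at 7 d, 37 members passed at 7 d, 5 higher and 32 lower. Of 47 called values of single genes, 39 kept direction and call in every alternative run, and no called value changed sign. With at least 10 counts in every library, 47 members could be fitted. Depth limits Cox4i2, Cox7a1 and, at 7 d, Cox6b2, which held 10 reads or fewer in each library.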
